A study of Drosophila melanogaster with 36 samples.

Results

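Transcripts of ap56f flies were compared with those of OregonR flies on 8 of the 36 two-colour arrays of a Drosophila melanogaster series, the arrays on which RNA of both strains was hybridised together. They were chosen by title. The ap56f RNA was in channel 1 (Cy3) on 4 arrays, numbered 66, 67, 68 and 69, and the OregonR RNA was in channel 1 on the other 4, numbered 54, 55, 56 and 57. The series also holds Antp73b, a strain with an allele of Antennapedia, and pairs each strain with each other strain and with itself. ap56f carries an allele of apterous (ap), and OregonR is a wild-type strain. Both came as adult flies from a commercial supplier and were frozen whole for RNA. The sources used here do not give the sex or age of the flies, the number of RNA extractions or whether the strains share a genetic background. What the p-values measure is therefore how far these arrays spread, and that spread may be technical. In RNA of whole flies, fewer cells of a type and less RNA per cell cannot be told apart.

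The apterous gene encodes a LIM-homeodomain transcription factor. In the wing disc it gives dorsal cells their identity, and the border between dorsal and ventral cells organises the wing margin, so that flies with strong alleles have no wings. The gene also acts in particular neurons, including cells that make neuropeptides, and in muscle precursors. Adult females of some apterous alleles are known for low juvenile hormone production and for eggs that do not take up yolk.

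The arrays hold ratios between channels and no levels, so the presence of a tissue could not be checked from its markers. Values are log2 ratios coded as channel 1 over channel 2 and centred on the median of each array. The strain difference of an element, a pair of spots with the same probe, is the half-difference of the 2 orientations, and the half-sum is its dye offset. Neither labels nor files settle which channel has the positive sign. Sides are therefore called plus and minus: if the ratio is channel 1 over channel 2, plus means more transcript in ap56f, and if it is the opposite ratio, plus means less. An element with a limma adjusted p under 0.05 over all elements tested is called.

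The strains differed clearly on a minority of elements. Of 15335 elements tested, limma called 683 (4.45%), 371 plus (2.42%) and 312 minus (2.03%), and 2641 had an unadjusted p under 0.05. They stood for 534 of 10665 genes (5.01%), 283 plus (2.65%) and 253 minus (2.37%), counting a gene if any of its elements was called. Called differences had a median size of 1.29-fold, 108 reached 1.5-fold and 18 reached 2-fold, 15 of these plus and 3 minus. The number of arrays limits the precision, with a median standard error (SE) of 0.07 on the log2 scale, and the smallest called difference was 0.22. The count was 452 without array 66 and between 471 and 637 without any other single array. The minus count was 190 without array 55 and 191 without array 66. After centring each block of spots on its own median, 64.5% of the calls were plus, against 54.3% with 1 centre per array.

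The dye offset was the larger part of the ratios. It was called for 3387 elements (22.1%), 1513 plus (9.87%) and 1874 minus (12.2%), and its median size was 0.13, against 0.08 for the strain difference. Without array 68 the count was 2067, and without array 69 it was 1989. On the 8 arrays that hybridised ap56f or OregonR with itself, where no strain difference can enter, 2717 of 15120 elements had a called offset (18%), 1243 plus (8.22%) and 1474 minus (9.75%). The offset differed between the direct and the self-hybridised arrays on 0 elements by limma (0%), with 1501 at an unadjusted p under 0.05. Offsets of 2-fold or more occurred on 103 elements, all with no gene listed, and 0 of these were called between strains. Of the 683 called elements, 178 (26.1%) also had a called dye offset.

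**Figure D1:**
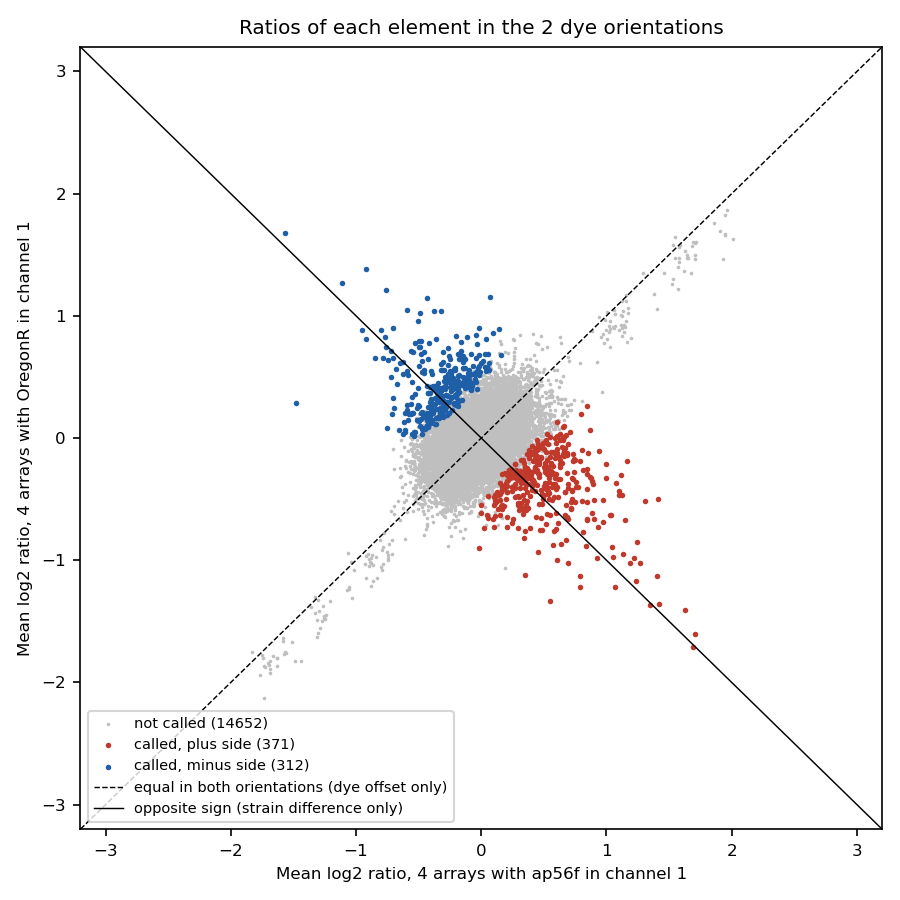
Mean log2 ratio of each of the 15335 tested elements on the 4 arrays with ap56f in channel 1 (horizontal) and on the 4 with OregonR in channel 1 (vertical). Points on the dashed line have a dye offset and no strain difference, points on the solid line the reverse, and the 371 plus calls (red) and 312 minus calls (blue) lie on both sides of the dashed line.

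For 470 of the 683 called elements every turned ratio lay on 1 side, and for the others at least 1 ratio was 0 or lay on the other side. Over the called elements, chosen for this difference, arrays of the same orientation correlated with r between 0.83 and 0.92 (12 pairs) and arrays of opposite orientation with r between -0.82 and -0.61 (16 pairs). Over all tested elements the values were 0.45 to 0.68 and 0.12 to 0.39, so the shared dye offset outweighed the strain difference there. The ranges of the 2 orientations did not overlap for 11.5% of all elements (5% plus, 6.47% minus). For the called elements, chosen for the difference between these orientations, the share was 96.9% (662 of 683). The SD of log2 ratios averaged 0.323 ± 0.0662 on the direct arrays and 0.260 ± 0.0334 on the self-hybridised arrays (SD, n = 8 each; exact permutation test, two-sided, p = 0.035). By median absolute deviation the means were 0.284 and 0.226 (exact permutation test, two-sided, p = 0.09). The SD was 0.262 over the first 2 direct arrays of each orientation, in array order, and 0.384 over the last 2. That makes 4 arrays in each set. The last 2 self-hybridised arrays of each strain were also wider than the first 2. In array order their SDs were 0.255, 0.224, 0.299 and 0.284 for OregonR, and 0.223, 0.225, 0.301 and 0.268 for ap56f. The permutation test took no account of array order.

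The gene ap itself stood on the plus side by a small margin. Its ratios were 0.20, 0.32, 0.07 and 0.44 on the arrays with ap56f in channel 1, against -0.14, -0.32, -0.43 and -0.37 on those with OregonR in channel 1. All turned ratios were plus and the 2 orientations did not overlap. The difference was 0.29, which is 1.22-fold (95% interval 0.15 to 0.43, SE 0.07, limma adjusted p = 0.019). The adjusted p was 0.058, 0.05, 0.059 and 0.066 without array 55, 66, 67 or 69, with differences of 0.29, 0.30, 0.28 and 0.26. Within the first 2 and the last 2 arrays of each orientation the differences were 0.24 and 0.33 (limma adjusted p = 0.21 and 0.3). Since the stretch of ap on this element is unknown here, its value checks no label.

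Other genes of wing patterning were not called. The list of ap, its cofactor Chi, and genes of the wing's borders and axes had 26 tested members. Of these ap was the only one called, a share of 3.85% near the 5.01% of all genes. The list median was 0.01 against -0.02 over all genes. Both fng, a glycosyltransferase that ap activates in dorsal wing cells (0.13, SE 0.07), and Chi (-0.07, SE 0.07) were short of the threshold. Wings form before the adult stage, and adult flies were used here. The part of the stage in these values was not tested. Of the Hox genes Antp, Scr, Dfd and pb, which set segment identity, and the limb gene Dll, limma called 0 of 5 (0%). Antp had ratios of 0.14, -0.06, 0.26 and -0.07 with ap56f in channel 1, and 0.00, 0.00, -0.34 and 0.00 with OregonR in channel 1. The 2 orientations overlapped, and the difference of 0.08 had a 95% interval of -0.07 to 0.22 (limma adjusted p = 0.62). It was -0.03 in odd-numbered arrays alone and -0.06 through Antp73b.

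Genes that lie near ap on chromosome arm 2R were looked at in gene order. Of the 21 tested genes before ap, TpnC4 and CG30440 were called. Among the 100 after it 7 were called (5 plus, 2 minus), while 4.94% of all 2087 genes tested on the arm were. The called neighbours were chosen for display after their values were seen. CG7882 (0.28, SE 0.07) and CG14591 (0.31, SE 0.07) lay 9 and 16 genes after ap on the plus side, followed by the cytochrome P450 Cyp6w1 (-1.62, SE 0.11) and by Hsepi (-0.42, SE 0.07), which modifies heparan sulfate. Further on stood Cyp6a2 (0.32, SE 0.07), the serpin Spn42Da (0.38, SE 0.09) and the tetraspanin Tsp42Ed (0.41, SE 0.08), all plus. A second element of Cyp6a2 gave -0.10 (SE 0.07), and CG30440 was called by 1 of 3 elements. Whether the neighbourhood differs between strains in sequence was not tested. By arm, the share of genes called ran from 1.85% on the fourth chromosome (1 of 54) to 6.62% on 2L (127 of 1919), with 4.63% on X (77 of 1662).

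**Figure D2:**
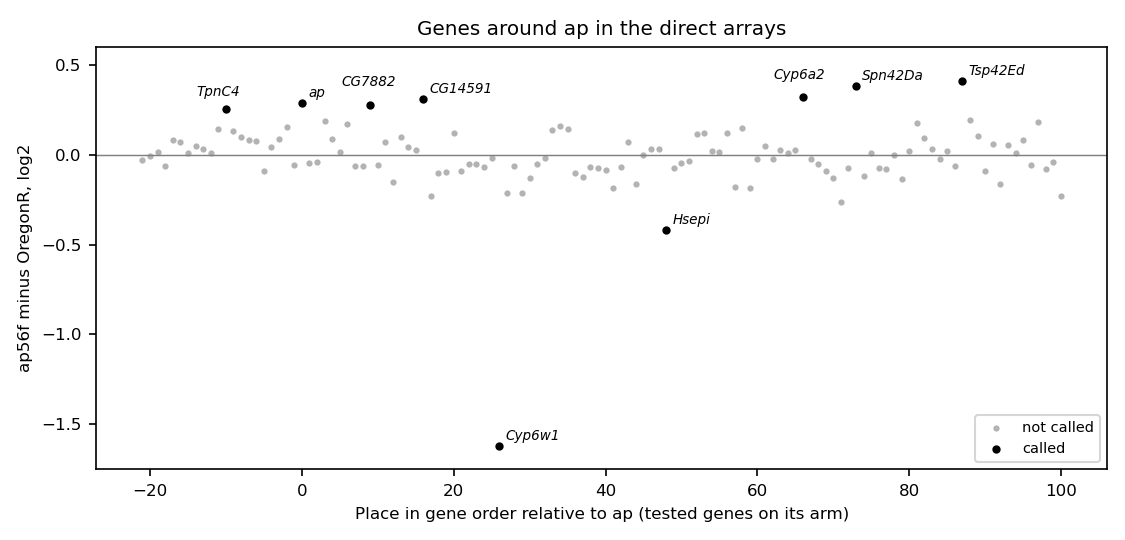
Strain difference on the log2 scale of the tested genes around ap, by their place in gene order (21 before and 100 after), with 1 element per gene. Called genes are black and named; Cyp6w1 at -1.62 lies apart from its neighbours, and CG30440 is grey because another of its elements was the called one.

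Of the elements with a gene, that of tobi had the largest plus value. tobi encodes an alpha-glucosidase that responds to diet through insulin signalling. Its ratios were 1.94, 1.51, 1.67 and 1.38 with ap56f in channel 1, and -1.23, -1.32, -1.86 and -1.23 with OregonR in channel 1. The orientations lay far apart, for a 2.86-fold difference (log2 1.52, SE 0.08, limma adjusted p = 2.2e-08). Cyp4e3, a cytochrome P450, had 1.15, 1.26, 1.00 and 0.86 with ap56f in channel 1, against -1.15, -1.29, -1.19 and -1.24 with OregonR in channel 1. These values were tight, for 2.21-fold (log2 1.14, SE 0.07, limma adjusted p = 2.8e-08). CG4757 had 1.13 to 1.59 in the first orientation and -1.26 to -0.92 in the second (log2 1.27, SE 0.07).

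Lectin-galC1, a galactose-binding lectin, had 1.34, 0.99, 1.17 and 0.70 on the arrays with ap56f in channel 1, against -0.76, -0.87, -1.30 and -0.95 on those with OregonR in channel 1 (2.02-fold, SE 0.08). Ugt35C1, a UDP-glycosyltransferase that conjugates small molecules, differed by 0.97 and 0.72 on its 2 elements. Send1, a protease of the spermathecae where females store sperm, had 1.07, 0.93, 0.63 and 0.53, against -0.97, -1.08, -1.32 and -1.15. Its orientations were well separated, for a difference of 0.96 (SE 0.07). Sclp (1.11), CG3699 (1.10), CG9360 (1.05) and CG13962 (0.94) were also among the largest plus values, with the antimicrobial peptide genes Mtk and DptB. CG13962 had a value on 6 of the 8 arrays only, at -0.74 and -1.93 on the 2 with OregonR in channel 1. Its 95% interval was wide, 0.66 to 1.22.

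On the minus side Cyp6w1 stood first. Its ratios were -1.85, -1.03, -1.83 and -1.54 with ap56f in channel 1, and 1.37, 2.10, 1.16 and 2.09 with OregonR in channel 1. The sides never crossed, although arrays of the same orientation spread widely, and the difference was 3.08-fold (log2 -1.62, SE 0.11, limma adjusted p = 1.9e-07). CG13083 (-1.19) and CG7953 (-1.15), both on 2L, were the other genes beyond 2-fold. CG7953 had -0.92, -0.76, -1.10 and -0.89 with ap56f in channel 1, against 1.14, 1.37, 1.32 and 1.69 with OregonR in channel 1. CG4734 was the most even of the group, with -0.96 to -0.89 on the arrays with ap56f in channel 1 and 0.63 to 0.92 on those with OregonR in channel 1 (log2 -0.87, SE 0.06). Jhbp2 is a member of the takeout family, whose proteins bind hydrophobic ligands such as juvenile hormone. It had -1.23, -1.32, -1.56 and -1.79, against 0.26, 0.31, 0.44 and 0.13, a difference of -0.88 beside a dye offset of -0.59. ND-B8, a subunit of respiratory complex I, differed by -0.80 (SE 0.08). Of the 72 oxidative phosphorylation genes tested 1 other was called, so that the share was 2.78%, beside 5.01% of all genes. The other was ND-MNLL on the plus side (0.30), a call not made without array 55, 56, 66, 67, 68 or 69. The remaining named genes were CG17472 (-0.91), CG7381 (-0.82), CG42807 (-0.80), CG10680 (-0.79), and the reproductive genes Cp38 and Acp53C14b.

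**Figure D3:**
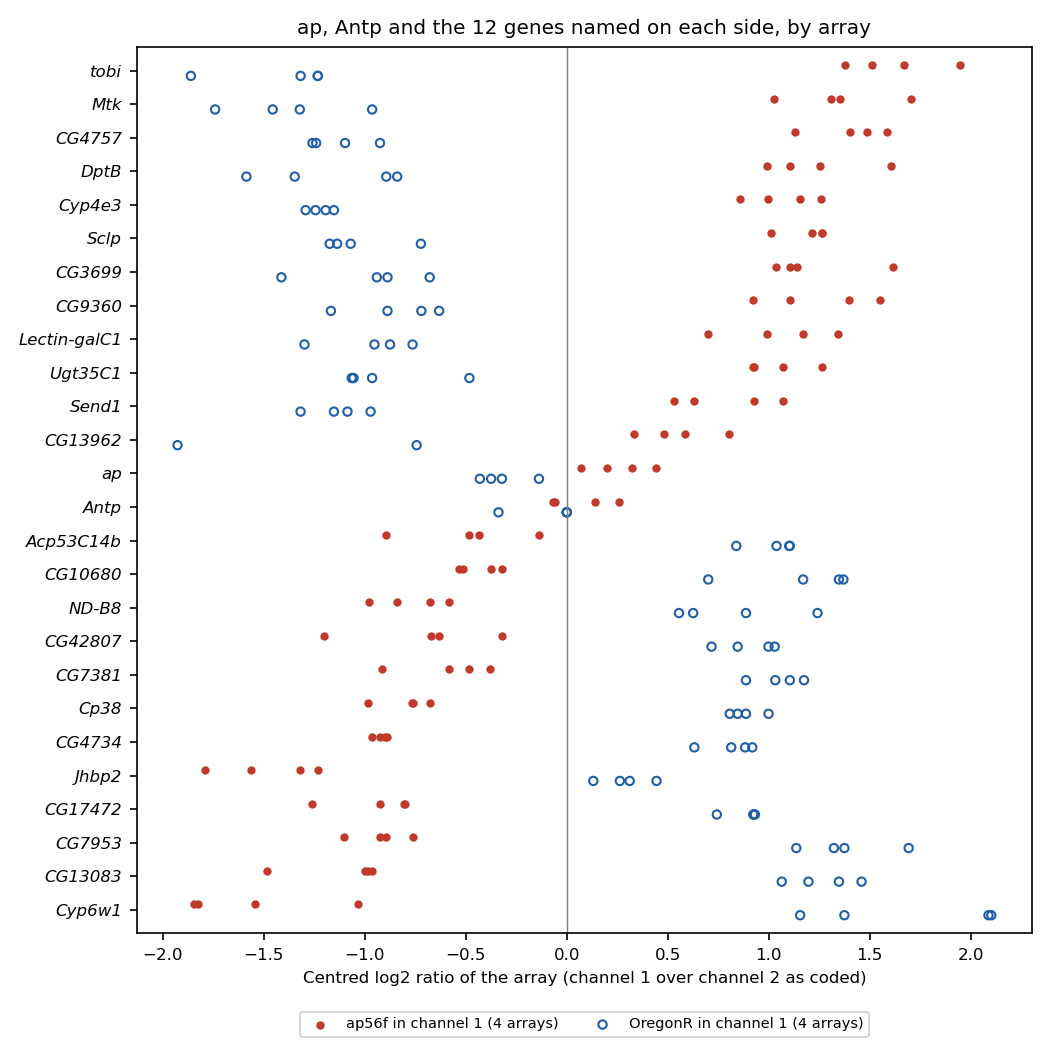
Centred log2 ratios of ap, Antp and the 12 genes named on each side on each direct array, with ap56f in channel 1 (red, filled) and OregonR in channel 1 (blue, open). The colours change places between tobi at the top and Cyp6w1 at the bottom, overlap for Antp, and are shifted left for Jhbp2, whose dye offset was -0.59.

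Eggshell genes lay on the minus side together. Chorion and vitelline membrane proteins are secreted by the follicle cells around the oocyte. Of 13 tested genes 11 were called minus and 0 plus (84.6%, beside 5.01% of all genes), with a median of -0.52. Cp38, a chorion gene, had -0.77, -0.76, -0.68 and -0.99 with ap56f in channel 1, against 0.85, 0.89, 1.00 and 0.81 with OregonR in channel 1. No array of one orientation came near the other (log2 -0.84, SE 0.06, limma adjusted p = 4.8e-07). The vitelline membrane genes Vm34Ca (-0.63, SE 0.07) and Vm32E (-0.61, SE 0.07) came next. The 2 members short of the threshold were fs(1)N (-0.22) and ndl (-0.25), and all 13 values were below 0. The list median was -0.53 in the first 2 arrays of each orientation and -0.52 in the last 2.

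Of 4 genes of yolk proteins and their receptor 1 was called (25%), on the minus side. The receptor yl, which carries yolk into the oocyte, had -0.63, -0.49, -0.92 and -0.67, against 0.54, 0.54, 0.62 and 0.57 with OregonR in channel 1 (log2 -0.62, SE 0.07, limma adjusted p = 1.6e-05). The yolk protein genes Yp1 (-0.21, SE 0.06), Yp2 (-0.27, SE 0.08) and Yp3 (-0.19, SE 0.09) were short of the threshold, with limma adjusted p of 0.075, 0.061 and 0.31. Of 37 germline and maternal genes, 10 were called minus and 0 plus, or 27.0%. With 1 array left out in turn, the count of minus calls was 7 to 10. In 34 the value was below 0 and in 3 above, and the median was -0.13. Of the 10, smg was called by 1 of its 2 elements (-0.26 and -0.33). Among them were me31B (-0.47, SE 0.06), a helicase that holds maternal RNAs silent, CycB (-0.39, SE 0.07), which encodes cyclin B, and otu (-0.37, SE 0.07), needed for oogenesis. me31B had ratios of 0.00, 0.00, -0.32 and -0.14 with ap56f in channel 1, against 0.85, 0.76, 0.79 and 0.92 with OregonR in channel 1. The ranges were apart, although 1 orientation sat near 0, since the gene also had a dye offset of 0.36. For vas (-0.20, SE 0.06) and osk (-0.08, SE 0.07), of the same germline and maternal list, no difference was called (limma adjusted p = 0.1 and 0.63). Of 10 genes of juvenile hormone synthesis, response and breakdown, 1 was called, or 10% beside 5.01% of all genes. The called gene was Kr-h1 (0.36, SE 0.07), a transcription factor induced by the hormone, on the plus side. The list median was 0.02, with 6 values above 0 and 4 below.

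Most tested genes of the male reproductive glands were called minus. Products of the accessory gland and ejaculatory duct pass to the female in seminal fluid. Of 18 tested genes 13 were called minus and 0 plus, or 72.2% beside 5.01% of all genes. The median was -0.34, with 16 values below 0 and 2 above. Of the called genes, Mst57Da was called by 1 of its 2 elements (-0.38 and -0.03). The count of minus calls was 8 without array 66 and 9 to 14 without any other single array. Acp53C14b had -0.49, -0.43, -0.14 and -0.90 with ap56f in channel 1, against 1.10, 0.84, 1.04 and 1.10 with OregonR in channel 1 (log2 -0.75, SE 0.08, limma adjusted p = 1.4e-05). Its neighbour Acp53C14a (-0.71, SE 0.07) and the ejaculatory bulb gene Ebp (-0.46, SE 0.07) were also called. The sex peptide gene SP, whose product changes the behaviour of mated females, stood at -0.26 (SE 0.08, limma adjusted p = 0.084). The list median was -0.39 in the first 2 arrays of each orientation and -0.27 in the last 2. Testis and sperm genes had 1 of 28 called, Mst87F (-0.27, SE 0.07), or 3.57%, and a median of -0.06. That call held only without array 68 among the arrays left out in turn. Of 13 genes of sex determination and dosage compensation, limma called 0 (0%), with a median of -0.05. The part of the sex of the flies in these values was not tested.

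Genes of phototransduction, the cascade by which light-activated rhodopsin opens the channels of the photoreceptor, lay mostly on the plus side. Of 18 tested, 5 were called plus and 1 minus, or 33.3% beside 5.01% of all genes. In 15 the value was above 0, and the median was 0.16. Arr2, the arrestin that ends rhodopsin signalling, had 1.07, 1.59, 1.32 and 1.24 with ap56f in channel 1, against -0.07, -0.63, -0.62 and -0.73 with OregonR in channel 1. The orientations did not overlap, and the difference of 0.91 (SE 0.08, limma adjusted p = 3.1e-06) stood beside a dye offset of 0.40. The G protein gamma subunit Ggamma30A (0.51, SE 0.06), the other arrestin Arr1 (0.50, SE 0.08), the retinoid dehydrogenase Pdh (0.40, SE 0.08) and the G protein beta subunit Gbeta76C (0.26, SE 0.07) were the other plus calls. The channel gene trpl was minus (-0.36, SE 0.09), a call not made without array 54, 55, 68 or 69, while its partner trp stood at 0.24 (SE 0.09, limma adjusted p = 0.15). Eye pigment genes, which act in the same organ, had 0 of 13 called by limma (0%) and a median of 0.04.

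Antimicrobial and immune-induced peptide genes were plus or short of the threshold. They encode small secreted peptides of the fat body. Of 15 tested 8 were called plus and 0 minus, or 53.3% beside 5.01% of all genes (median 0.27). Without array 55 or 66 the plus count was 5. Mtk, which encodes the peptide metchnikowin, had 1.03, 1.35, 1.31 and 1.70 with ap56f in channel 1, against -0.96, -1.74, -1.46 and -1.32 with OregonR in channel 1 (2.56-fold, SE 0.09). DptB, a diptericin active against bacteria, had 0.99, 1.10, 1.25 and 1.61, against -1.58, -0.84, -0.89 and -1.35 (2.30-fold, SE 0.09). In both genes every ratio of one orientation was plus and every ratio of the other minus. The antifungal Drs had 0.49, 0.54, 0.49 and 0.29, against -0.92, -0.89, -0.90 and -1.03 (log2 0.69, SE 0.06). The bomanins BomBc3 (0.48) and BomBc2 (0.39) were also called, while Def, the defensin gene, stood at -0.05 (SE 0.08) and AttD at -0.12 (SE 0.06).

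Of the immune genes that sense microbes or relay the signal, 3 of 31 were called plus and 1 minus. That is 12.9%, beside 5.01% of all genes, and the median was 0.06. The plus count was 1 without array 56, 57, 66 or 67. PGRP-SB1, a peptidoglycan recognition protein, differed by 0.64 (SE 0.07, limma adjusted p = 3.1e-05). Dif, a transcription factor of the Toll pathway, was at 0.31 (SE 0.08) and PGRP-SC2 at -0.32 (SE 0.07). The call of Dif was not made without array 56, 57, 66, 67, 68 or 69, and that of PGRP-SC2 not without array 66 or 69. Among C-type lectins, sugar-binding proteins of several tissues, Lectin-galC1 and lectin-37Da (0.78, SE 0.07) were plus, and lectin-29Ca (-0.35) and lectin-33A (-0.28) minus. These calls made up 33.3% of the 12 tested. Of the 2 minus calls 1 was made without array 55, 56, 57, 66 or 67, and 0 without array 54, 68 or 69.

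Gut genes were called on both sides. All 3 tested lysozyme genes, which help digest bacteria in the midgut, were minus with a median of -0.62: LysX (-0.62, SE 0.08), LysE (-0.62, SE 0.06) and LysS (-0.50, SE 0.07). LysE had -0.63, -0.58, -0.37 and -0.38 with ap56f in channel 1, against 0.63, 0.68, 0.86 and 0.80 with OregonR in channel 1. Without probe sequences, any signal shared between lysozyme genes cannot be told apart. Jonah proteases and trypsins had 4 plus and 2 minus calls among 21, or 28.6% beside 5.01% of all genes. Jon99Ci stood at 0.60 (SE 0.07), Jon99Fi at 0.45 (SE 0.07) and Jon65Aiv at -0.46 (SE 0.07). The minus count was 1 without array 54, 55, 57, 66 or 69. Of 11 maltase, amylase and related genes 3 were plus (27.3%), tobi, Mal-A1 (0.54, SE 0.06) and Mal-A2 (0.38, SE 0.08), and 0 minus. Npc2e, of a family of sterol carriers, stood at -0.68 (SE 0.07), and was the only call among 8 Npc2 genes (12.5%).

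Cytochrome P450 genes were called on both sides. Of 74 cytochrome P450 genes tested, 7 were plus and 4 minus (14.9%, beside 5.01% of all genes), with a median of 0.07. Beside Cyp4e3 and Cyp6w1 these included Cyp6a20 (0.52, SE 0.07), which is linked to aggression between males, and Cyp9f2 (-0.38, SE 0.07). Of 32 UDP-glycosyltransferase genes 2 were plus, Ugt35C1 and Ugt35A1 (0.57, SE 0.06), a share of 6.25% near the 5.01% of all genes. Glutathione S-transferases had 1 plus and 3 minus calls among 30 (13.3%), led by GstD3 (-0.39, SE 0.06) and GstE12 (0.31, SE 0.07). Only 1 of the 3 minus calls was made without array 54, 57 or 66.

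Odour-carrier genes were called on both sides. Odorant-binding and antennal proteins are secreted into the fluid around sensory neurons. Of 37 tested, 4 were called plus and 4 minus (21.6%, beside 5.01% of all genes), and the median was 0.00. Of the minus calls, Obp56g (-0.35, SE 0.06) was also counted above among the genes of the male reproductive glands. Obp99c had 0.63, 0.53, 0.80 and 0.71 with ap56f in channel 1, against -0.76, -0.76, -0.40 and -0.61 with OregonR in channel 1 (log2 0.65, SE 0.07). Os-C, an antennal protein, had -0.63, -0.37, -1.09 and -0.88, against 0.38, 0.58, 0.78 and 0.80 (log2 -0.69, SE 0.08). The antennal protein a10 was also minus (-0.58, SE 0.09). Odorant, gustatory and ionotropic receptors had 0 plus and 2 minus calls among 108, or 1.85%. The calls were Ir7c (-0.33) and Ir75a (-0.26), the second of which was not called without array 54, 55, 56, 66, 68 or 69. Without array 54 the plus count was 3.

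Further plus calls came from fat body, takeout, neuropeptide and cuticle genes. Tsf1, a transferrin that carries iron in the haemolymph, had 0.85, 1.07, 1.02 and 1.21 with ap56f in channel 1, against -0.58, -0.63, -0.62 and -0.68 with OregonR in channel 1 (1.78-fold, SE 0.06, limma adjusted p = 5.1e-07). Fbp1, the receptor for larval serum protein, was at 0.57 (SE 0.08), and fit, whose peptide is made in fat body and limits feeding, at 0.48 (SE 0.08). Fbp2 was at 0.44 (SE 0.07) and the fatty acid synthase FASN1 at -0.35 (SE 0.07). Of 18 fat body genes, Tsf1 among them, 4 were called plus and 1 minus (27.8%, beside 5.01% of all genes). The fat body list as a whole had a median of 0.00, with 9 values above 0 and 9 below. dyw, a gene of the takeout family that affects daytime sleep, had 0.80, 1.07, 1.49 and 1.24, against -0.38, -0.63, -0.96 and -0.71 (1.88-fold, SE 0.08). The peptide genes CCHa2 (0.38, SE 0.07) and Nplp3 (0.36, SE 0.07) were also plus. With dyw, which the list of 29 neuropeptide and hormone genes holds although it encodes neither, they were its 3 calls (10.3%). Of 97 cuticle genes 6 were plus and 1 minus, with Cpr92F (0.49, SE 0.07) and Cpr97Eb (0.48, SE 0.07) ahead. That is 7.22%, near the 5.01% of all genes, and the minus count was 0 without array 54, 56, 57, 66 or 69. Elsewhere in the takeout family Jhbp7 (0.45, SE 0.07) and Jhbp14 (0.42, SE 0.07) were plus, opposite to Jhbp2. These were the only calls among the 13 tested genes of the takeout list, which leaves out dyw. The share was 23.1%, beside 5.01% of all genes, and the list median was 0.04.

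Muscle, chaperone and clock lists held 1 to 3 calls each. Of 26 sarcomere and flight muscle genes (11.5% called, beside 5.01% of all genes), TpnC4, a troponin C of flight muscle (0.26, SE 0.07), and Mp20 (0.27, SE 0.07) were plus and Strn-Mlck was minus (-0.22, SE 0.06), with a median of -0.05. These 3 calls were each lost without most single arrays: Strn-Mlck without any of the 8, Mp20 without 7 of them and TpnC4 without 6. The flight muscle genes Act88F (-0.09, SE 0.07) and fln (-0.10, SE 0.07) were not called. Among 19 heat shock and chaperone genes (15.8% called) Hsp26 (-0.47, SE 0.08) and Gp93 (-0.29, SE 0.07) were minus and DnaJ-1 (0.40, SE 0.06) was plus. Gp93 was not called without array 54, 55, 57, 68 or 69. Pdfr, the receptor of the clock neuropeptide PDF, was the only call among 11 clock genes, or 9.09% (0.33, SE 0.08), lost without array 56, 57, 66, 67 or 69.

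Ribosomal protein genes showed 1 discordant case in 38 tested. One element of RpL3 had -0.26, -0.26, -0.14 and -0.28 with ap56f in channel 1, against 0.20, 0.20, 0.24 and 0.26 with OregonR in channel 1 (log2 -0.23, SE 0.06). Another had 0.26, 0.26, 0.48 and 0.40, against -0.67, -0.74, -0.46 and -0.38 (log2 0.46, SE 0.07), so these 2 elements lay on opposite sides. The other 2 elements of RpL3 were at -0.11 (SE 0.07) and -0.16 (SE 0.09), not called. The call of the first was made without array 68 but not without any other single array. CG42807 was likewise called at -0.80 and 0.57 on its 2 elements. Of the 82 genes with several elements and a call, 65 had every element on the same side, and RpL3 and CG42807 were the 2 called on both. A further 114 called elements had no gene listed and 8 had several. The largest difference of all, 3.25-fold plus, was on such an unnamed element, with 1.91, 1.80, 1.49 and 1.57 on the arrays with ap56f in channel 1, against -1.46, -1.68, -2.07 and -1.63 on those with OregonR in channel 1 (log2 1.70, SE 0.08, limma adjusted p = 2e-09).

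**Figure D4:**
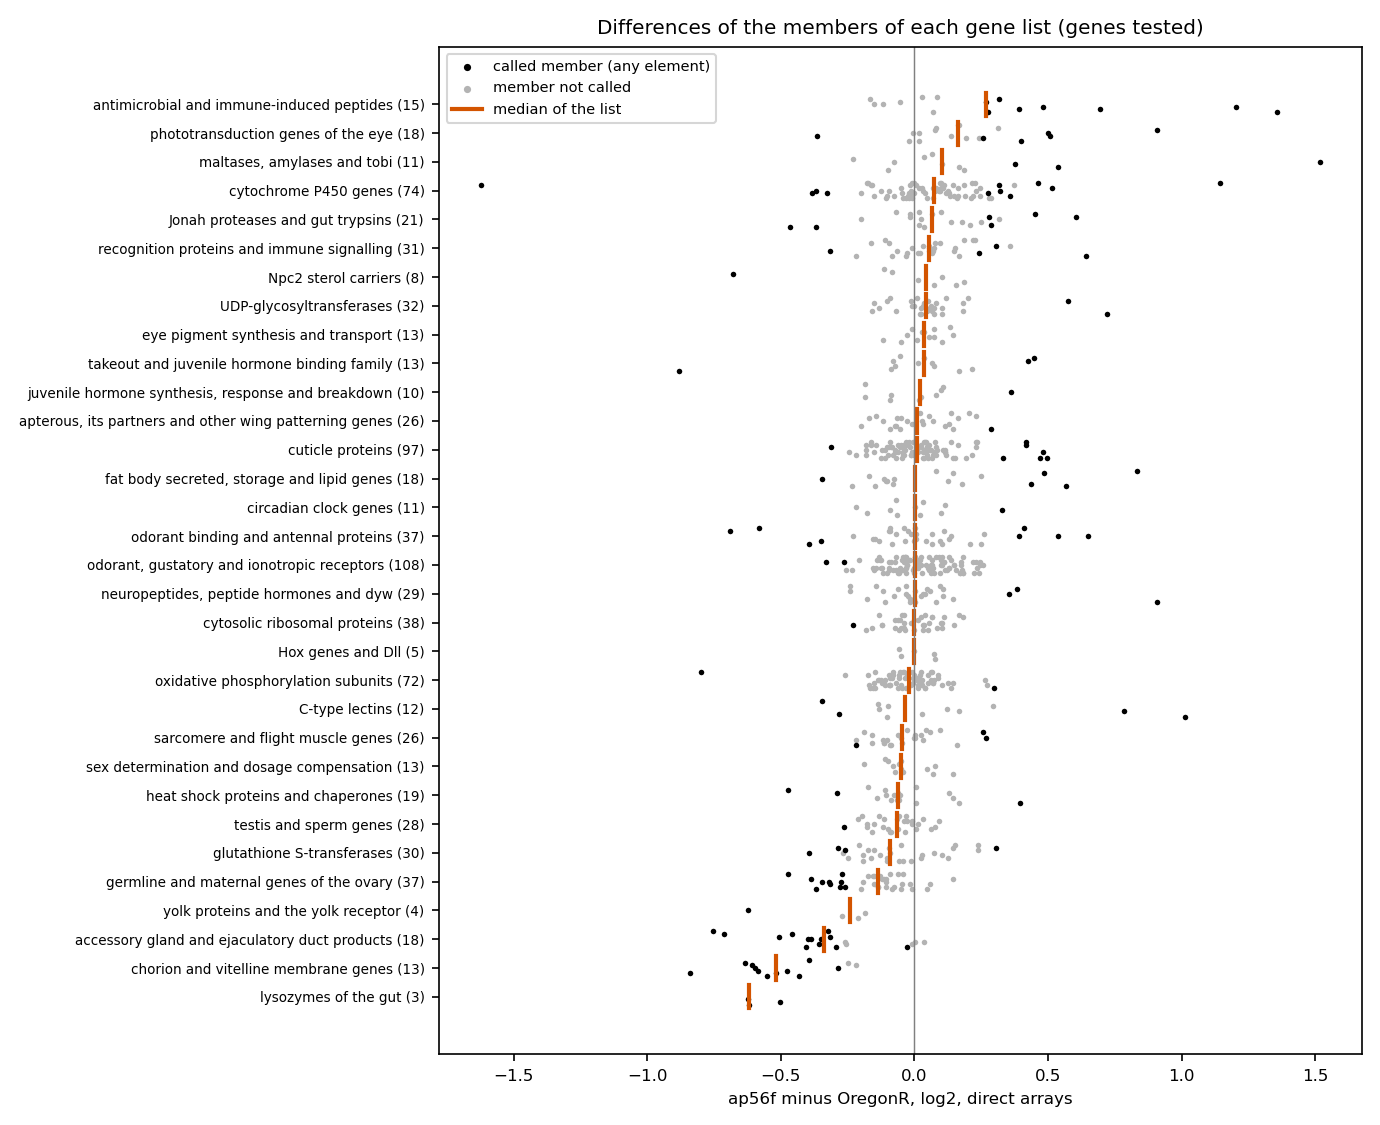
Strain difference of each tested member of the 32 gene lists, with called members in black and the list median as an orange bar. The lists are sorted by median, with lysozymes (-0.62), eggshell genes (-0.52) and seminal fluid genes (-0.34) at the bottom and antimicrobial peptides (0.27) and phototransduction genes (0.16) at the top.

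The same strain difference can be reached through Antp73b, on the 16 other arrays that pair it with OregonR or with ap56f. The arrays differ from the 8 above, but the RNA may be shared between them. limma called the direct minus the indirect difference on 0 of 14949 elements (0%), and 410 had an unadjusted p under 0.05. tobi was at 1.52 (SE 0.08) directly and 1.62 (SE 0.09) through Antp73b, and Mtk at 1.36 (SE 0.09) and 1.38 (SE 0.12). Cp38 was at -0.84 (SE 0.06) and -0.76 (SE 0.09). Among the named elements the widest gap was that of Cyp6w1, at -1.62 (SE 0.11) directly and -2.13 (SE 0.13) through Antp73b. Next came Os-C, at -0.69 (SE 0.08) and -0.37 (SE 0.09), PGRP-SB1, at 0.64 (SE 0.07) and 0.92 (SE 0.10), and Tsf1, at 0.83 (SE 0.06) and 1.10 (SE 0.10). ap was at 0.29 (SE 0.07) directly and 0.24 (SE 0.13, limma adjusted p = 0.39) through Antp73b. The indirect fit called 465 elements (3.11%), 275 plus (1.84%) and 190 minus (1.27%). A fit to all 36 arrays, which include the 8 direct ones, called 2311 of 15335 (15.1%), 1026 plus (6.69%) and 1285 minus (8.38%).

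**Figure D5:**
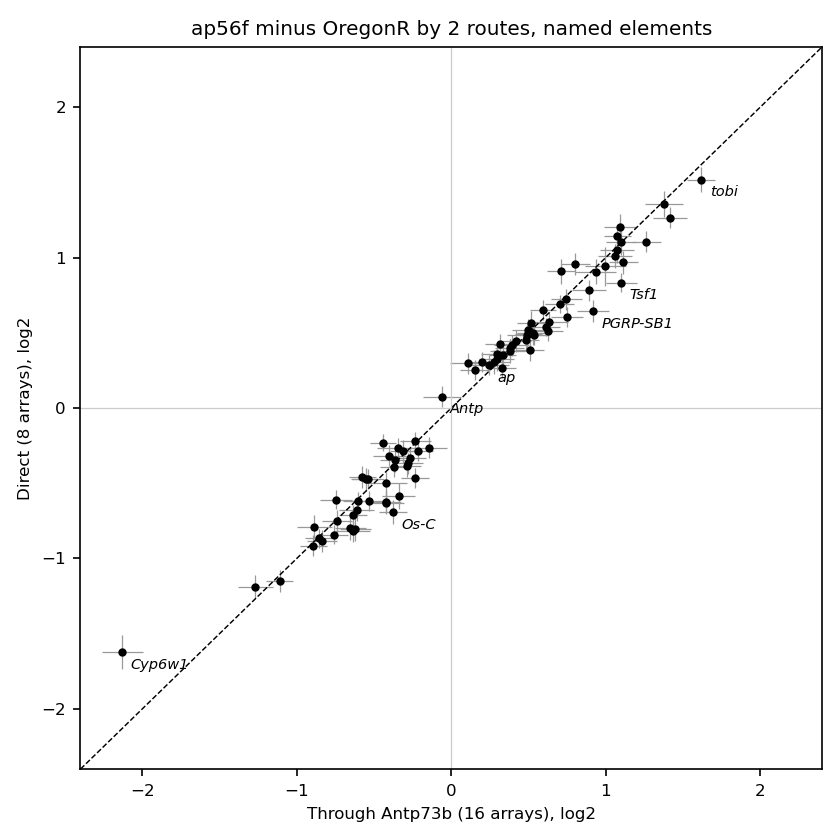
Difference of ap56f and OregonR on the log2 scale for the named elements, from the 8 direct arrays (vertical) and through Antp73b on 16 other arrays (horizontal), with 1 SE each way and the line of equality dashed. tobi lies at 1.52 and 1.62, and Cyp6w1, at -1.62 and -2.13, lies farthest from the line.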

How the data were processed

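The deposited table holds 1 value per spot and array, a signed fold ratio between the channels. That unit was read from the values: 0 of 1059750 values fell inside -1 to 1, none had more than 1 decimal, and 19.1% equalled 1 or -1, so the smallest step is 0.14 on the log2 scale. The sources used here do not say how the authors made it from the scans. The authors' centring before deposit is unknown; the median fold was 1 or -1 on 32 of 36 arrays. The table held 0 columns of other samples.

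Folds were turned to signed log2, each array was centred on its median and the 2 spots of an element were averaged. Elements with a value on at least 2 of 4 arrays in each orientation were tested, 15335 of 15732, and 397 were not. Missing values were left out of a fit. Between 28939 and 30716 of 31464 spots had a value on each direct array. R 4.3.3 with limma 3.58.1 (lmFit, eBayes, two-sided) fitted a dye intercept and a strain term on the 8 direct arrays, with Benjamini-Hochberg adjustment. Gene names came from the platform's table (12586 elements with 1 gene, 73 with several, 3073 with none), and 12233 were updated through RefSeq Release 6, which also gave arms and gene order. Medians of the 32 lists use 1 element per gene, the one with values on most direct arrays. Named genes are ap, Antp, the 12 largest called on each side (at least 6 arrays, at most 1 ratio on the other side) and the 3 called members of each list with the smallest p. The rule gave 84 genes, and 0 genes came from the contrast of direct and indirect differences. Other genes were named after their values were seen. The members and lists were chosen with earlier results of these data known. The direct fit was also run on simulated data with independent normal noise. Those data held no shared RNA, array order or rounding of folds, so the run cannot show their effect on the calls.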

Additional observations from a re-analysis of the deposited data

Results flagged for a closer look

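Each set of 4 array values of a named element was checked for an array far from the other 3, by Dixon's ratio of gap to range. Chance alone marks about 1 in 20 such sets, and 10 of 169 were marked.

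With ap56f in channel 1, CG13083 had -1.48 on array 68 while the other 3 arrays lay between -1 and -0.96. Hsp26 had -1.10 on array 69, the others lying between -0.59 and -0.53. In 3 sets the other values were nearly equal: Jhbp14 had 0.67 on array 69 beside 0.63 on the others, Pdfr had 0 on array 68 beside 0.18 to 0.20, and RpL3 had -0.14 on array 68 beside -0.28 to -0.26.

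With OregonR in channel 1, tobi had -1.86 on array 56 beside -1.32 to -1.23, and Arr2 had -0.069 on array 54 beside -0.73 to -0.62. CG17472 had 0.74 on array 57 beside 0.92 to 0.93. GstD5 had -0.017 on array 56 beside 0.34 to 0.38. Antp had -0.34 on array 56 beside 0 on the other 3. Without array 56 tobi was still called, and without array 54 so was Arr2.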

How the results depend on the processing

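The count of called elements depended on the setting. It was 683 (371 plus, 312 minus) as reported, 2311 (1026, 1285) with all 36 arrays, 1033 (593 plus) with quantile normalization, 431 (171 minus) with a trended and robust eBayes, and 308 (183, 125) without a dye term. With single spots it was 318 (181, 137) for the first and 441 (193 minus) for the second. With fewer arrays it was 211 (141, 70) in odd-numbered and 90 (55, 35) in even-numbered arrays, 47 (34, 13) in the first 2 and 136 (95, 41) in the last 2 arrays of each orientation. Through Antp73b 190 were minus. After choices made on seeing the data, array weights gave 1129 (595 minus) and centring each block of spots gave 601 plus. Leaving out 1 array gave 452 to 637 called, 259 to 375 plus and 190 to 288 minus, and 1989 to 3002 dye offsets. A strain by place interaction, also added later, was called by limma on 0 of 15234 elements, with 509 at an unadjusted p under 0.05. The cause of these shifts was not tested, beyond the smaller number of arrays.

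Direct arrays exceeded self-hybridised ones by 0.0585 in median absolute deviation (exact permutation p = 0.09). The lysozyme median was -0.42 through Antp73b. The odorant-binding median was -0.081 in odd-numbered arrays. The Npc2 median, 0.04, was -0.039 with the first spot, -0.063 in even-numbered and 0.14 in the last 2 arrays. The neuropeptide median, 0.00, was 0.041 with centring by block of spots and 0.058 through Antp73b. Antp reversed, to -0.032 in odd-numbered arrays and -0.062 through Antp73b; neither was called.

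Of the 85 named elements 85 kept side and call with all 36 arrays, with place as a block, with quantile normalization and with scaling. The call was lost for 19 without a dye term, 20 with the first spot, 62 of 84 in the first 2 arrays, 38 of 84 in the last 2 and 44 of 84 in even-numbered arrays. It was lost for 33 in odd-numbered arrays and 20 through Antp73b, with 1 more element, that of Antp, turned in each. ap was not called with a trended and robust eBayes (limma adjusted p = 0.076), without a dye term (0.058), or with the first (0.11) or second spot (0.079). No paired analysis was made, since the sources used here do not say which arrays share an RNA extraction. The array numbers give no pairs, as each occurs in 1 group only. The step of 0.14 in the deposited folds and the number of arrays limit small differences, and the sources used here give no signal over background.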
